A study of Mus musculus with 11 samples.

Results

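Microglia in this study were the nuclei that the deposited metadata name Microglia by label prediction: 1175 of the 110304 nuclei, or 1.07%. Their number per library ranged from 60 to 202 with a median of 92. The study sequenced RNA of single nuclei, in 11 libraries, from brain tissue of Human TfR knock-in mice (genotype hTfR KI HOM, homozygous), where TfR is the transferrin receptor. The labels give the brain region as posterior, whereas the metadata name the tissue cortex and the strain C57BL/6J. Dosing was intravenous, weekly and given 4 times, with harvest 72 h later. ATV:BACE1, dosed at 57 mg/kg, binds the TfR, carries no oligonucleotide and served as the control (3 libraries). OTV:Malat1, at 60 mg/kg, joins an antisense oligonucleotide (ASO) against Malat1 to a TfR-binding molecule (3 libraries). The matched conjugate nonTV:Malat1, also given at 60 mg/kg, lacks TfR binding (3 libraries). Malat1 ASO is the unconjugated oligonucleotide at 2.5 mg/kg (2 libraries), which the design text calls an ASO-equivalent dose, so its weight per kg differs from that of the conjugates. Replicate 1 was female and 2.33 months old in every group, replicate 4 was male and 2.57 months old, and replicate 5 was male and 2.33 months old. These numbers coincide with the deposited batches, so batch, sex and age cannot be told apart. No label says outright that libraries came from separate mice, so p-values measure the spread between libraries.

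Microglia are the resident macrophages of the brain parenchyma. They depend on signalling through the CSF1 receptor, and transforming growth factor beta (TGF-beta) together with the transcription factor PU.1 (gene Spi1) maintains their surveying, or homeostatic, state. Malat1 is an abundant long non-coding RNA that stays in the nucleus, where antisense oligonucleotides that recruit RNase H can cut it, and nuclear RNA sequencing therefore captures it well. The question put to this class was how far each dosing form lowered Malat1 in microglia, and whether other microglial genes differed between the groups.

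The class was described by 5 marker genes. Its name was predicted from expression, so these genes do not test the name independently. Levels are in CPM, the count of unique molecular identifiers (UMIs, counted RNA molecules) scaled to the same total in each class or library. Csf1r, the CSF1 receptor, stood at 574 CPM in pooled microglia and at 12.3 CPM in oligodendrocytes, the next class once perivascular macrophages are set aside. Inpp5d, a phosphatase of immune signalling, stood at 1715 CPM against 78.9 CPM in vascular endothelium. Tgfbr1, a TGF-beta receptor subunit, stood at 1728 CPM against 163 CPM in leptomeningeal cells. The purinergic receptor gene P2ry12 reached 817 CPM, with neurons next at 70.4 CPM. Cx3cr1, the fractalkine receptor, reached 862 CPM, and the next class, named Glia, held 168 CPM. All 5 markers were thus at least 5 times as high as in any other class but the perivascular macrophages. That class, a related macrophage type of 125 nuclei, shared the markers at 526 CPM of Csf1r and 173 CPM of Cx3cr1. Its own 11 listed genes, such as Mrc1 and F13a1, separated it, with 1.03% of its UMIs against 0.0261% of those of microglia.

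**Figure D1:**
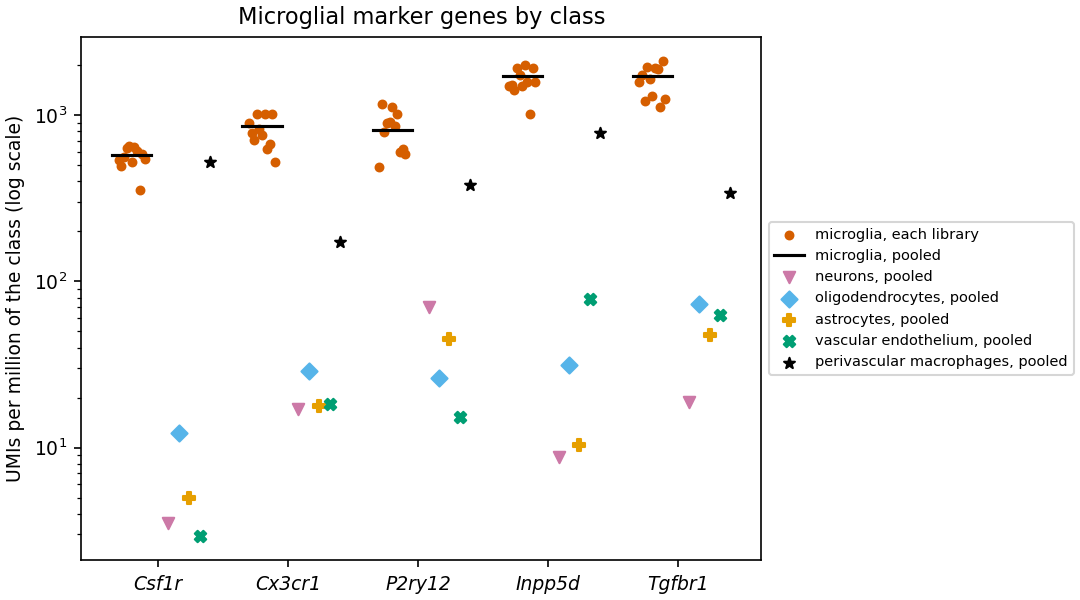
Levels of the 5 marker genes in CPM (log scale). Orange points are microglia of each of the 11 libraries, the black line is pooled microglia, and other symbols are pooled classes. Microglial libraries lie above the neurons, oligodendrocytes, astrocytes and vascular endothelium for each gene, and perivascular macrophages come nearest.

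Across libraries the markers were present throughout. Csf1r ranged from 357 to 650 CPM with a median of 559, and Inpp5d from 1021 to 2011 CPM with a median of 1580. OTV:Malat1 replicate 5 was the lowest of the 11 libraries for Csf1r, Inpp5d and Tgfbr1 (1123 CPM). That library also had the lowest median prediction score, 0.845, against 0.887 to 0.940 in the others.

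Microglial nuclei were shallow, with a median of 883 UMIs and 716 genes, against a median of 2859 UMIs over all nuclei. Summed per library they held 64349 to 233197 UMIs, 1287407 in all. These counts limit the precision of the values below, beside the spread between libraries. In the authors' clustering 1163 of the 1175 lay in cluster 7, which also held 458 nuclei named neurons and 344 named oligodendrocytes. The authors' doublet calls marked 26 microglia (2.21%, against 10.4% of all nuclei), and 7 of these were in OTV:Malat1 replicate 4. Called doublets were kept. Malat1, the share of nuclei, the counts of called genes and 19 of the 21 calls of other genes were also computed without them. No barcode sequence was shared between microglia of different libraries, whereas 1495 of 108788 barcode sequences of all nuclei recurred in another library.

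RNA of other classes was present in the microglial sums. The 10 neuronal genes listed, such as Snap25 and Meg3, were all detected and made up 0.345% of microglial UMIs, against 3.56% in neurons. Their summed share was 0.395 to 0.466% in the ATV:BACE1 libraries, 0.237 to 0.401% in nonTV:Malat1, 0.286 to 0.507% in OTV:Malat1 and 0.217 to 0.453% in Malat1 ASO. The 8 oligodendrocyte genes made up 0.308% of microglial UMIs and the 8 astrocyte genes 0.0945%. Of the 11 perivascular macrophage genes, Pf4, Cbr2, Cd209f and Clec4n were at 0 in microglia. Of 12 genes of other blood leukocytes, S100a8, Ly6c2, Cd3e, Cd3g, Cd79a, Ms4a1 and Nkg7 were at 0, and the list summed to 0.00326%.

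Genes expressed by the class were described before the dosing groups were compared. At least 1 UMI was counted for 18458 genes, and 4620 reached 50 CPM. Of these, 139 were at least 10 times as high in microglia as in any other class but perivascular macrophages. Since the class name was predicted from expression, these ratios describe the class and were not tested. The 20 highest ratios ran from 73.7 for the unnamed transcript Gm47754 down to 50.8 for Myo1f, a myosin of leukocytes, and Arhgap45 came next at 50.7.

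Several of those 20 genes encode receptors of the innate immune system. Csf3r, the receptor for granulocyte colony-stimulating factor, stood at 541 CPM, 67.9 times the next class with perivascular macrophages set aside. Siglech, a sialic acid-binding lectin of microglia, stood at 929 CPM with a ratio of 57.2. Itgam, the CD11b subunit of complement receptor 3, had 308 CPM and a ratio of 58.2. Il10ra, a subunit of the interleukin-10 receptor, had 214 CPM and a ratio of 59.8. Selplg, the ligand of P-selectin, stood at 687 CPM with a ratio of 60.4. The set also held transcription factors, with Spi1 at 212 CPM and a ratio of 59.1 and Ikzf1 at 768 CPM and a ratio of 51.4. Other members were Gm40645, Rhoh, Cd37, Tmem273, Cd33, Fgd2, Gna15, Gm34589, Bin2 and I830077J02Rik. All these ratios leave out perivascular macrophages, which held 209 CPM of Spi1, 368 of Ikzf1, 188 of Csf3r and 267 of Siglech. They held 144 CPM of Itgam, 93.8 of Il10ra and 28.8 of Selplg. Myo1f was higher there, at 505 CPM against 491 CPM in microglia.

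Promoters of the 5 markers and these 20 genes were searched for GAGGAAGT, the core of PU.1-type binding motifs, on both strands within 250 bases before the gene start. Sequences were taken from RefSeq (GRCm38.p6), which matched 19 of the 25 genes, and 3 of the 19 held the motif: Inpp5d, Cd37 and I830077J02Rik. Among all 27025 genes with a promoter sequence 755 held it, or 2.79%. The 3 windows are shown because Spi1, which encodes PU.1, was itself among the 20 genes. They are written 5′ to 3′ on the strand of the gene, with the motif or its reverse complement ACTTCCTC in capitals. The windows are chr1:87620062-87620311 on the plus strand for Inpp5d, and chr7:45238840-45239089 and chr3:105932665-105932914 on the minus strand for Cd37 and I830077J02Rik.
Inpp5d: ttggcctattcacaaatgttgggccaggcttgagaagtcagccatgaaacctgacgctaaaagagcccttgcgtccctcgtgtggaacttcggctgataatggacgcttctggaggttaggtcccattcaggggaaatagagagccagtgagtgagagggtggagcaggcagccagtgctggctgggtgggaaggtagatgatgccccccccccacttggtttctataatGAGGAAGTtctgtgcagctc
Cd37: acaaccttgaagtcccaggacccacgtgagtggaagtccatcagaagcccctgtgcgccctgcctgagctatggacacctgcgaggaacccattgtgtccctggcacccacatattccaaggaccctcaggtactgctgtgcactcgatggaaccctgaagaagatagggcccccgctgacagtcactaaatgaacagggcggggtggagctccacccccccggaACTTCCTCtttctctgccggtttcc
I830077J02Rik: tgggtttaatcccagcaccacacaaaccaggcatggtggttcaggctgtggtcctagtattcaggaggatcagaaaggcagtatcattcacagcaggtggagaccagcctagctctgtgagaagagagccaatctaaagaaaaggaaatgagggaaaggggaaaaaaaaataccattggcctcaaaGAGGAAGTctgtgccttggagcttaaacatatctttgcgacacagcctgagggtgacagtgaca
In Inpp5d the motif began 20 bases before the start and in I830077J02Rik 64 bases before it, both on the strand of the gene. In Cd37 it lay 25 bases before the start on the opposite strand. A match of letters is a description and does not show that a factor binds there.

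By abundance, Malat1 led the class with 4.49% of all microglial UMIs. The next genes were far lower, from Gm42418 at 0.372% to Qk, an RNA-binding protein gene, at 0.227%. Between them stood Csmd3, Plxdc2, Tanc2, Nav2, Pcdh9, Elmo1 and Srgap2. UMIs were not divided by gene length, so these shares rank RNA molecules counted and not expression per length. Plxdc2, a transmembrane protein gene at 3268 CPM, and Elmo1, which acts in the engulfment of dying cells at 2510 CPM, were above every other class, perivascular macrophages set aside. Pcdh9 at 2726 CPM was below its level in oligodendrocytes, 13094 CPM.

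Malat1 was lower in microglia after OTV:Malat1 than in any other group. Its gene spans chr19:5795690-5802672 (GRCm38) and is annotated as a long non-coding RNA. Malat1 took 4.67, 5.78 and 6.10% of microglial UMIs in the 3 control libraries (replicates 1, 4 and 5), with a mean of 5.52% ± 0.749 (SD, n = 3). After OTV:Malat1 it took 2.90, 2.82 and 3.17%, with a mean of 2.97% ± 0.181 (SD, n = 3), which is 53.8% of the control mean. All 3 OTV:Malat1 libraries lay below all 8 others, which ranged upward from 4.14%. In edgeR's quasi-likelihood test with batch as a block, the log2 change was -0.93 (SE 0.099, 95% confidence interval -1.13 to -0.73, adjusted p = 3.19e-09). That test shares its estimate of the spread over genes and over all dosing groups, so its p-values do not rest on the compared libraries alone. Without the block the adjusted p was 0.00212. Within batches the log2 ratio of the shares was -0.69, -1.03 and -0.94 in replicates 1, 4 and 5. The exact two-sided permutation test of the shares gave p = 0.1, the smallest that 3 libraries against 3 can give.

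The conjugate without TfR binding left a smaller difference. Malat1 took 4.14, 4.92 and 5.45% of microglial UMIs in the nonTV:Malat1 libraries, averaging 4.83% ± 0.659 (SD, n = 3), or 87.7% of the control mean. The ranges of these libraries and of the controls overlapped. The log2 change from ATV:BACE1 was -0.20 (SE 0.0980, 95% confidence interval -0.40 to -0.0067), with an edgeR p of 0.0429 before adjustment and 0.715 after it. Within each batch the library of nonTV:Malat1 was the lower one, with log2 ratios of -0.17, -0.23 and -0.16. A reduction was therefore not called, and the interval reaches from almost no change to -0.40.

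For the unconjugated oligonucleotide no change was called. Malat1 took 5.18 and 5.73% of microglial UMIs in replicates 1 and 5 of Malat1 ASO, averaging 5.46% ± 0.384 (SD, n = 2). Both values lay inside the range of the controls. The log2 change from ATV:BACE1 was -0.023 (SE 0.113, 95% confidence interval -0.25 to 0.20, edgeR adjusted p = 0.993). Within batches the log2 ratio was 0.15 in replicate 1 and -0.091 in replicate 5, so the direction differed between them.

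**Figure D2:**
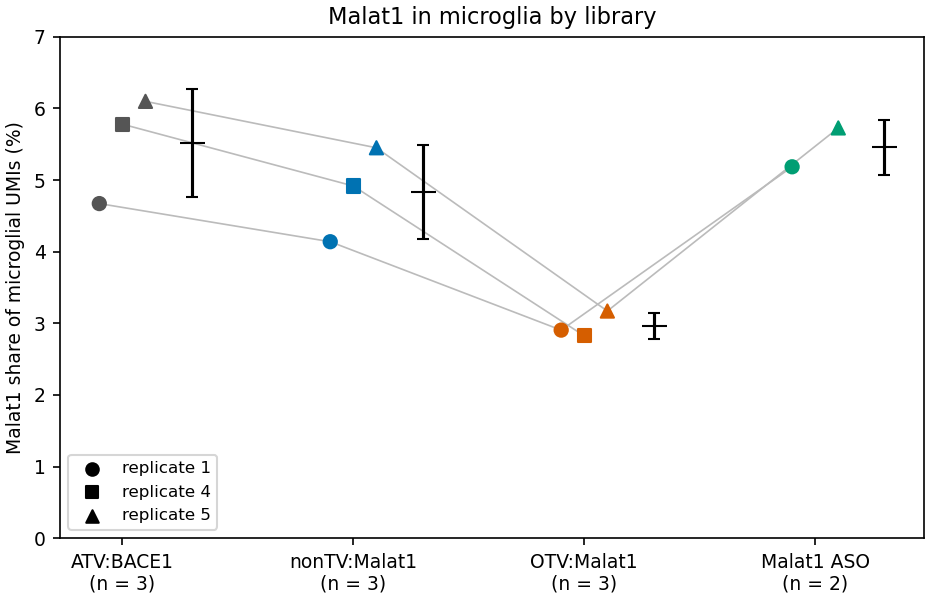
Malat1 share of microglial UMIs (%, axis from 0) by dosing group. Each symbol is a library, its shape gives the replicate number, grey lines join the same number, and black bars give the group mean and SD. The 3 OTV:Malat1 libraries sit between 2.82 and 3.17%, below the other 8.

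At the same dose of 60 mg/kg, OTV:Malat1 microglia held less Malat1 than those of nonTV:Malat1. The log2 difference was -0.73 (SE 0.0987, 95% confidence interval -0.92 to -0.53, edgeR adjusted p = 4.66e-06), or 60.4% of the nonTV:Malat1 level. Within batches it was -0.51, -0.80 and -0.78. Without the block the estimate stayed at -0.74 and the adjusted p was 0.0582, so this call needs the batch term. DESeq2 with the batch term gave an adjusted p of 6.28e-05. Against Malat1 ASO at its ASO-equivalent 2.5 mg/kg, OTV:Malat1 differed by -0.91 (SE 0.112, edgeR adjusted p = 2.89e-07, and 0.0137 without the block). Between nonTV:Malat1 and Malat1 ASO the difference was -0.18 (95% confidence interval -0.41 to 0.046, edgeR adjusted p = 1.00). These comparisons reuse the same libraries as those with the control.

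The lower level was seen across the nuclei of the OTV:Malat1 libraries. Every nucleus was thinned at random to 500 UMIs, which all 1175 reached, so that depth could not set the count. The mean number of Malat1 UMIs was then 20.2, 26.6 and 28.7 per nucleus in the 3 control libraries. It was 14.4, 13.6 and 14 in OTV:Malat1, a log2 ratio of the group means of -0.84 (exact permutation p = 0.1, the smallest possible). Medians were 13 to 14 UMIs in OTV:Malat1, 18 to 25.5 in ATV:BACE1, 20 to 23 in nonTV:Malat1 and 24 in both Malat1 ASO libraries. In the 3 OTV:Malat1 libraries the 90th percentile was 19 to 24 UMIs, about the median of the controls, and the 10th percentile was 6.3 to 8 against 12 to 19. Before thinning, the mean share per nucleus was 2.82% in OTV:Malat1 and 5.01% in ATV:BACE1.

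**Figure D3:**
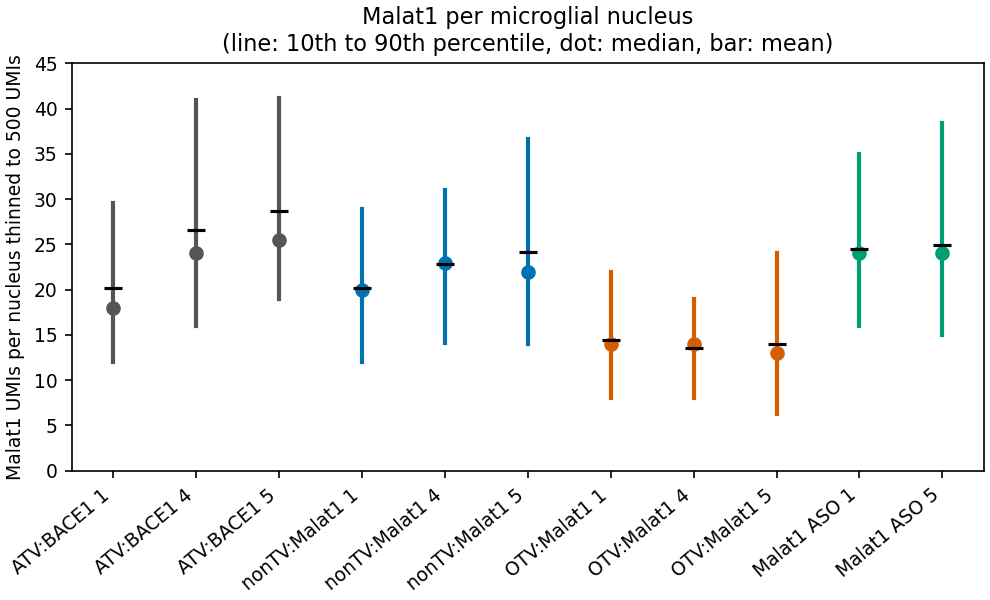
Malat1 UMIs per microglial nucleus after each nucleus was thinned to 500 UMIs, by library and replicate number (axis from 0). Lines run from the 10th to the 90th percentile of nuclei, dots are medians and black bars are means. Medians are 13 to 14 in OTV:Malat1 and 18 or more in the other 8 libraries.

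The size of the OTV:Malat1 change was set beside that of 3 other classes. Vascular endothelium, the class that carries the blood-brain barrier, went from a mean Malat1 share of 6.24% in ATV:BACE1 to 1.83% in OTV:Malat1. Oligodendrocytes went from 9.04 to 1.80%, and neurons from 7.62 to 4.83%. The microglial log2 change was smaller than the endothelial change of -1.86 by 0.93 (SE 0.161, edgeR interaction of class and group, adjusted p = 0.00484). The call was lost without the library block (0.90, adjusted p = 1.00), among nuclei of at least 1000 UMIs (0.86, adjusted p = 1.00) and when 1 of 3 libraries was left out. Those libraries were ATV:BACE1 replicate 1 (adjusted p = 0.0573), ATV:BACE1 replicate 5 (0.122) and OTV:Malat1 replicate 4 (0.102). Against oligodendrocytes the microglial change was smaller by 1.51 (SE 0.288), which was not called with the block (adjusted p = 0.335) and was called without it (1.49, adjusted p = 0.0110). The log2 ratio of the microglial to the oligodendrocyte Malat1 share was 0.65 to 0.90 in the OTV:Malat1 libraries and -0.82 to -0.63 in ATV:BACE1, without overlap (exact permutation p = 0.1, the smallest possible). Against neurons the difference was -0.22 (SE 0.441, adjusted p = 1.00), an estimate whose error leaves a difference in either direction possible. RNA of other classes lay in the microglial sums at the shares given above, and its part in the remaining Malat1 was not tested.

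Beyond Malat1 few genes were called. Of 3400 genes that passed the filter on low counts, 2 were called between OTV:Malat1 and ATV:BACE1 at an adjusted p under 0.05 (0.0588%), both lower: Malat1 and Asic2. The count at an unadjusted p under 0.05 was 132. Between nonTV:Malat1 and ATV:BACE1 12 genes were called (0.353%), all lower. Between Malat1 ASO and ATV:BACE1 1 gene was called (0.0294%), Asic2. Between OTV:Malat1 and nonTV:Malat1 5 genes were called (0.147%), with Malat1, Ttr and mt-Co1 lower and Ntm and Slc35f1 higher. OTV:Malat1 against Malat1 ASO gave 1 called gene (0.0294%), Malat1. Between nonTV:Malat1 and Malat1 ASO 3 genes were called (0.0882%), all lower in nonTV:Malat1, among them Ntm and Gpc5. The 12 calls fell to 0 without nonTV:Malat1 replicate 5 and to 2 without ATV:BACE1 replicate 4, and the other counts that single libraries moved are given in the closing section.

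Asic2, an acid-sensing ion channel of neurons, had 7, 87 and 24 UMIs in the controls (replicates 1, 4 and 5). It had 12, 9 and 10 in nonTV:Malat1, 9, 10 and 12 in OTV:Malat1, and 4 and 6 in Malat1 ASO. ATV:BACE1 replicate 4 thus held more than any other library, and 37 of its UMIs came from 1 nucleus called a doublet. The log2 change was -1.97 (SE 0.349, edgeR adjusted p = 0.00125) for OTV:Malat1. It was -1.87 (adjusted p = 0.00375) for nonTV:Malat1 and -2.90 (adjusted p = 0.00118) for Malat1 ASO, all against the same controls. Without ATV:BACE1 replicate 4 Asic2 was called in none of these comparisons, and the change was -1.15 for OTV:Malat1 and -1.002 for nonTV:Malat1. The nonTV:Malat1 change was -1.13 without nonTV:Malat1 replicate 4 and -1.02 without called doublets. Pooled microglia held 148 CPM of Asic2 and neurons 1739 CPM.

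The 12 genes lower after nonTV:Malat1 were Ntm, Asic2, Lsamp, Mgat4c, Slc35f1, Lrp1b, Tenm3, Gpc5, Dscaml1, Plcb1, Slc24a2 and Dlg2. The summed share of neuronal markers was lower in nonTV:Malat1 than in ATV:BACE1 in each replicate number, at 0.237 against 0.395%, 0.401 against 0.466% and 0.324 against 0.420% in replicates 1, 4 and 5. Without called doublets it was lower in replicates 1 and 4 (0.241 against 0.295% and 0.329 against 0.348%) and higher in replicate 5 (0.285 against 0.271%). The share of 5 oligodendrocyte precursor markers was lower in each number, at 0.00427 against 0.0301%, 0.0498 against 0.0854% and 0.0286 against 0.0311%. The oligodendrocyte markers were lower in replicates 1 and 4 but higher in replicate 5 (0.446 against 0.345%), and the astrocyte markers were higher in replicate 1 (0.0847 against 0.0580%) and lower in replicates 4 and 5. Of the 12 genes 4 were highest in astrocytes (Ntm, Lsamp, Tenm3 and Gpc5) and 3 in oligodendrocytes (Lrp1b, Dscaml1 and Slc24a2). The part of this RNA in the 12 calls was not tested. Ntm, a neuronal adhesion molecule, had 178, 557 and 513 CPM in ATV:BACE1 and 71.2, 152 and 112 CPM in nonTV:Malat1. The groups did not overlap, and the log2 change was -1.84 (SE 0.305, edgeR adjusted p = 0.000559). Its level in OTV:Malat1 was 146, 384 and 459 CPM, and in Malat1 ASO 244 and 359 CPM. Lsamp, another adhesion molecule of the same family, went from 702, 1725 and 1818 CPM to 271, 1269 and 398 CPM, with overlap (log2 change -1.23, adjusted p = 0.00376). Gpc5, a glypican listed here among the astrocyte markers, had 33.5, 395 and 668 CPM in ATV:BACE1 and 42.7, 132 and 124 CPM in nonTV:Malat1 (log2 change -1.76, adjusted p = 0.0215). Without ATV:BACE1 replicate 5 the Gpc5 change was -1.02 (adjusted p = 0.433). Among cluster 7 nuclei only, 8 of the 12 genes were called, and Gpc5 at -1.07 (edgeR adjusted p = 0.458) and Lsamp at -0.81 (0.184) were not. Dlg2, a scaffold of synapses, had 647, 881 and 808 CPM against 335, 437 and 522 CPM (log2 change -0.89, adjusted p = 0.0438).

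Each of the 15 called genes other than Malat1 had a higher CPM in some other class than in microglia, as did 2613 of all 3400 tested genes (76.9%) and Malat1 itself. Of the 15 genes 4 were highest in neurons. Gpc5 stood at 228 CPM in microglia and 7411 CPM in astrocytes, and Dlg2 at 531 CPM in microglia and 5166 CPM in neurons. Slc24a2, an ion exchanger gene, stood at 907 CPM in microglia and 4968 CPM in oligodendrocytes. Nuclei called doublets held 6.93% of all microglial UMIs but 48.4% of those of Asic2, 39.2% of Tenm3, 30.7% of Lsamp and 25.2% of Ntm. With called doublets left out, Malat1 and Ntm in nonTV:Malat1 against ATV:BACE1 (log2 change -1.61, adjusted p = 0.0452) were the only calls made in all 6 comparisons. Of 19 calls of genes other than Malat1 that were recomputed so, 19 kept their direction and 17 were within 1.5 times the change with doublets. Both fits share most nuclei, and the same counts over all 3400 genes were not computed. For nonTV:Malat1 against ATV:BACE1, Gpc5 stood at -1.70, Slc35f1 at -2.51 and Lrp1b at -0.96 without doublets, while Asic2 went from -1.87 to -1.02. Mgat4c and Tenm3, with 37.8 and 39.2% of their UMIs in called doublets, fell below the filter on low counts without those nuclei. They had no such estimate and are not among the 19. Without the batch block no gene other than Malat1 was called in any of the 6 comparisons by edgeR. In nonTV:Malat1 against ATV:BACE1 the Ntm change then went from -1.84 to -1.95 and the Lsamp change from -1.23 to -1.16. DESeq2 with the block made none of the 21 calls of genes other than Malat1, but it adjusted over 18458 genes and not over 3400. For Ntm in nonTV:Malat1 against ATV:BACE1 the DESeq2 p was 9.36e-06 and the adjusted p 0.0864.

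DESeq2, run over all 18458 genes with a UMI, made calls of its own. Against ATV:BACE1 it called Malat1 for OTV:Malat1 (0.00542% of genes, lower) and Hbb-bs, a haemoglobin chain, for nonTV:Malat1 (0.00542%, lower), and no gene for Malat1 ASO, where 54 passed an unadjusted p of 0.05. Between OTV:Malat1 and nonTV:Malat1 it called Malat1 and Ccl4, a chemokine (0.0108%, both lower). Between OTV:Malat1 and Malat1 ASO it called 5 genes (0.0271%), Malat1, Ccl4, Fgf10, Gm49267 and Lmcd1, with 3 higher (0.0163%) and 2 lower (0.0108%). Between nonTV:Malat1 and Malat1 ASO it called Fgf10 and Gm49267 (0.0108%, both higher). Apart from Malat1, none of these genes was called by edgeR, in the main run or over all 18458 genes with no filter. Ccl4 did not pass the filter on low counts, so the main run could not call it.

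**Figure D4:**
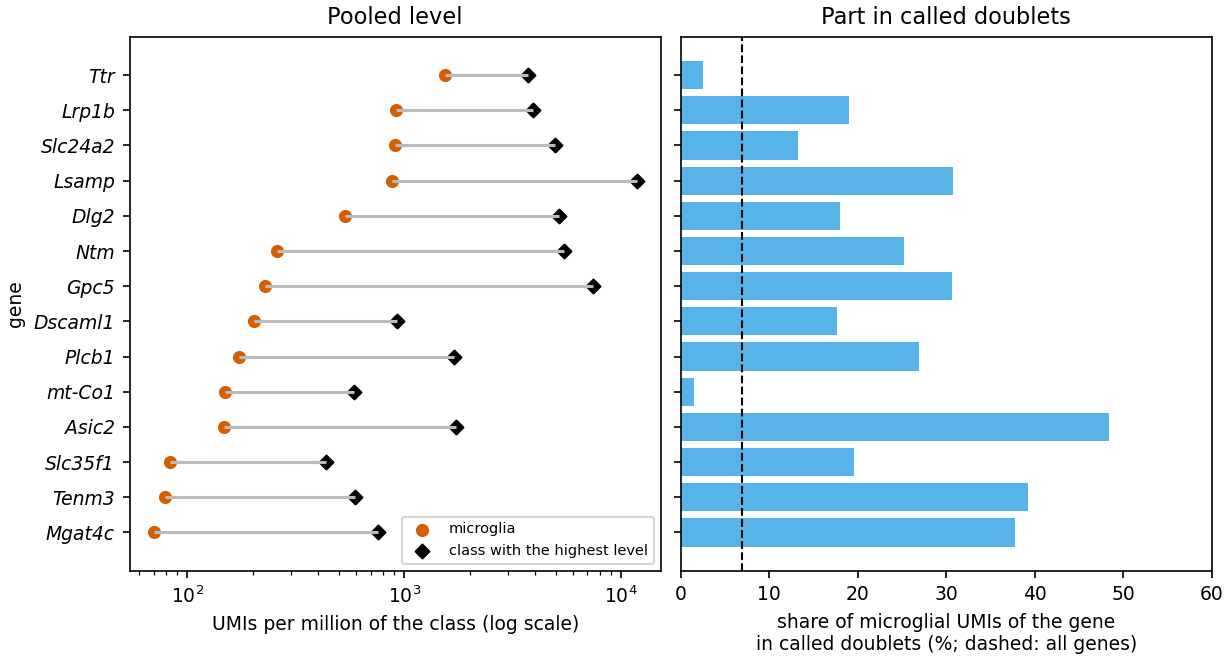
The 14 genes other than Malat1 called in at least 1 comparison with ATV:BACE1 or OTV:Malat1. The left panel gives CPM (log scale) in pooled microglia (orange) and in the class with the highest level (black), and the right panel the share of each gene's microglial UMIs that lay in called doublets (%), with the dashed line at the 6.93% of all genes. Every gene is lower in microglia than in the other class, and 12 of the 14 bars pass the line.

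Ttr and mt-Co1 were the exceptions in doublets, at 2.52 and 1.56%. Ttr encodes transthyretin, which the choroid plexus makes in large amounts, and it was found in 919 microglial nuclei. It stood at 2229, 1787 and 2175 CPM in nonTV:Malat1 and at 1196, 1126 and 932 CPM in OTV:Malat1, without overlap (log2 difference -0.95, edgeR adjusted p = 0.00298). In ATV:BACE1 it stood at 2096, 1007 and 1507 CPM, which overlapped both. The other 5 listed choroid plexus and ependymal genes, of which Dnah12 was at 0, summed to 203 to 273 CPM in nonTV:Malat1 and to 219 to 285 CPM in OTV:Malat1, so these groups overlapped. In ATV:BACE1 they summed to 326 to 422 CPM, above every library of both conjugates. With Ttr the list made up 0.272% of oligodendrocyte UMIs and 0.182% of microglial UMIs, with Ttr itself at 1449 and 1542 CPM. The sum without Ttr is therefore not a measure of choroid plexus RNA alone. Without called doublets the Ttr difference was -0.86 (adjusted p = 0.0775). The mitochondrial transcript mt-Co1 had 299, 162 and 174 CPM in nonTV:Malat1 and 120, 49.5 and 12.8 CPM in OTV:Malat1, the last from 1 UMI (log2 difference -1.66, adjusted p = 0.0258).

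Homeostatic genes of microglia showed no called change. Of 24 genes listed 21 were tested, none was called in any of the 6 comparisons, and their median log2 change for OTV:Malat1 was 0.0098 beside -0.00041 over all 3400 genes. Siglech stood at 714, 1051 and 901 CPM in the controls and 845, 1213 and 817 CPM in OTV:Malat1. P2ry12 ranged from 491 to 1168 CPM within the controls alone, wider than any difference between group means. Over the 6 comparisons it had the widest log2 estimate of the list, 0.55 between nonTV:Malat1 and Malat1 ASO (unadjusted edgeR p under 0.05, not called). In replicates 1 and 5 it stood at 904 and 1119 CPM in nonTV:Malat1 and at 629 and 585 CPM in Malat1 ASO. For Csf1r the log2 change was 0.01 (SE 0.216, adjusted p = 0.999) and for Cx3cr1 -0.09 (adjusted p = 0.995). For OTV:Malat1 against ATV:BACE1 the widest members of the list were Nav3 at -0.24 and Entpd1, an enzyme that degrades extracellular ATP, at 0.40, neither called.

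Transcription factors and TGF-beta genes behaved alike in this respect. Among 14 of 16 transcription factor genes and all 13 TGF-beta genes tested, none was called in any of the 6 comparisons. Mef2a stood at 1630 CPM ± 183 (SD, n = 3) in ATV:BACE1 and 1702 ± 394 (SD, n = 3) in OTV:Malat1, and Ikzf1 at 707 ± 120 and 778 ± 25.8. The median log2 change for OTV:Malat1 was 0.00095 over the factors and -0.038 over the TGF-beta genes. In Malat1 ASO the lowest factor was Sall3 at -1.52 (adjusted p = 0.973), which rests on 11 and 2 UMIs in its libraries.

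Genes of activated, disease-associated microglia spanned a wide range of levels, and no change was called. Of 27 listed 25 were in the matrix and 13 were tested, and none was called in any of the 6 comparisons. Itgax and Cst7 had 0 UMIs, Spp1 had 11 and Gpnmb 2 over all 11 libraries. Apoe, the apolipoprotein that rises in that state, stood at 1016 CPM ± 345 (SD, n = 3) in ATV:BACE1, 1225 ± 141 in nonTV:Malat1, 981 ± 40.2 in OTV:Malat1 and 1062 ± 180 (SD, n = 2) in Malat1 ASO. Trem2, a lipid-sensing receptor, had 124 UMIs in all and a log2 change of -0.23 for OTV:Malat1 (adjusted p = 0.995). The median log2 change of the 13 was -0.18 after OTV:Malat1, -0.00012 after nonTV:Malat1 and -0.12 after Malat1 ASO.

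Inflammatory and interferon genes were mostly too low to test. Il1b, Tnf and Ccl2 had 0 UMIs among the 1287407 microglial UMIs, and Ifit1 also had 0. With a count of 0 per library, levels up to 3 UMIs of the 64349 to 233197 in a library are allowed, counting error only. Of 22 inflammatory genes 3 were tested, and all 3 were higher in estimate for OTV:Malat1 without a call: Nfkb1 at 0.31, Rel at 0.39 and Cd86 at 0.23 (adjusted p = 0.995 each). All 3 were also higher in estimate for nonTV:Malat1 and for Malat1 ASO. Their medians there were 0.56 and 0.58, against 0.31 for OTV:Malat1. For nonTV:Malat1 Nfkb1 stood at 0.57 (SE 0.284, adjusted p = 0.715), and for Malat1 ASO Cd86 stood at 0.65. Both had an unadjusted edgeR p under 0.05 and were not called. Ccl4, also listed, was not among those tested by edgeR. DESeq2 called it lower in OTV:Malat1 than in nonTV:Malat1 and also called it between OTV:Malat1 and Malat1 ASO. The 2 interferon genes tested of 23 were Trim30a at -0.09 and Ifnar2 at 0.12 for OTV:Malat1. For Malat1 ASO against ATV:BACE1 Trim30a stood at 0.72 and Ifnar2 at 0.17, neither called.

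Nucleic acid sensors and uptake genes, which bear on an oligonucleotide drug, were likewise uncalled in all 6 comparisons. Tlr7, an endosomal RNA sensor, stood at 154 CPM ± 41.9 (SD, n = 3) in ATV:BACE1 and 163 ± 37.0 (SD, n = 3) in OTV:Malat1. Unc93b1, which brings such receptors to endosomes, stood at 495 ± 159 and 550 ± 89.4 CPM. Tlr9, the sensor of CpG DNA, had 3 UMIs in all and was not tested. Stab1, a scavenger receptor known to bind ASOs, had 44.6, 89.9 and 155 CPM in the controls and 176, 186 and 102 CPM in OTV:Malat1, with overlap (log2 change 0.70, SE 0.397, adjusted p = 0.995). It was also one of the 11 listed perivascular macrophage genes. Their summed share was 0.0078, 0.0252 and 0.0404% in the controls and 0.0257, 0.0371 and 0.0166% in OTV:Malat1. The part of perivascular macrophage RNA in the Stab1 values was not tested. The medians for OTV:Malat1 were 0.08 over 5 sensors tested of 20 listed and -0.07 over 9 uptake genes of 22.

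Among Fc receptor genes 2 of 8 were tested. Syk, the kinase downstream of Fc receptors, had 167, 98.9 and 46.6 CPM in ATV:BACE1 and 206, 285 and 115 CPM in OTV:Malat1, with overlap. Its log2 change was 0.81 (SE 0.351) with an edgeR p of 0.0252 before and 0.995 after adjustment. It was 0.92 (adjusted p = 0.506) for nonTV:Malat1 and 0.38 (adjusted p = 0.993) for Malat1 ASO. Fcer1g, the shared signalling chain of Fc receptors and the other member tested, had an estimate of -0.40 after OTV:Malat1, with 0.30 after nonTV:Malat1 and -0.23 after Malat1 ASO, none called. Tfrc, the mouse transferrin receptor gene by its symbol, had 21 microglial UMIs in all, at most 31.1 CPM in a library, and was not tested. Of 16 genes listed for the transferrin receptor and iron, with Bace1 among them, 5 were tested. Trf, transferrin, had the lowest log2 change for OTV:Malat1 at -0.57 (edgeR adjusted p = 0.995) and for Malat1 ASO at -0.46. For nonTV:Malat1 Slc40a1 was the lowest, at -0.65.

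Genes tied to Malat1 itself were examined next. Neat1, its neighbour and the scaffold RNA of paraspeckles, had 268, 377 and 420 CPM in ATV:BACE1 and 227, 322 and 651 CPM in OTV:Malat1 (log2 change 0.03, adjusted p = 0.998). Frmd8, another gene of the locus, had 54 UMIs and was not tested. Of 15 RNase H and paraspeckle protein genes 10 were tested with a median of 0.04 for OTV:Malat1, and Rnaseh1, the enzyme that such ASOs recruit, had 28 UMIs. Splicing factors were called in none of the 6 comparisons either, with 16 of 17 tested and a median of 0.03. Son, a nuclear speckle protein gene, stood at 653 CPM ± 80.6 (SD, n = 3) in ATV:BACE1 and 779 ± 131 (SD, n = 3) in OTV:Malat1. Srsf6 had the lowest log2 change of the list for OTV:Malat1, at -0.99 (SE 0.525, edgeR adjusted p = 0.995). It was also the lowest for nonTV:Malat1 at -0.71 and for Malat1 ASO at -0.59, each against ATV:BACE1 and not called.

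Complement and phagocytosis genes stayed uncalled in all 6 comparisons as well. Of 21 listed 14 were tested, with a median log2 change of 0.02 for OTV:Malat1. Elmo1 stood at 2353 CPM ± 243 (SD, n = 3) in ATV:BACE1 and 2486 ± 498 (SD, n = 3) in OTV:Malat1, and Mertk, a receptor for dying cells, at 1292 ± 175 and 1361 ± 497. C1qa, C1qb and C1qc, the subunits of complement C1q, had log2 changes of -0.36, 0.05 and -0.0049. Cell cycle genes were near 0, with 0 UMIs of Top2a and 2 of Mki67, and none was tested.

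**Figure D5:**
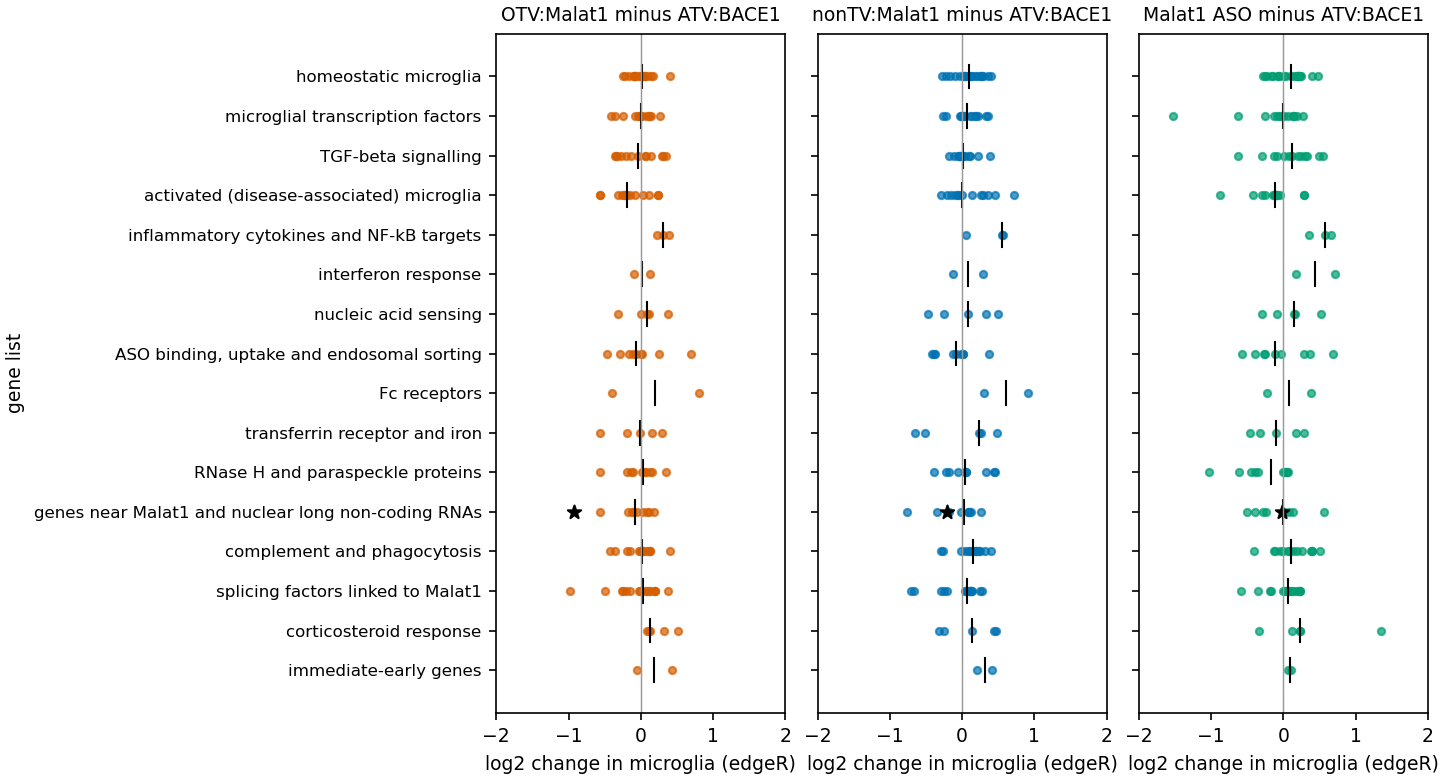
Log2 changes against ATV:BACE1 of the tested members of 16 gene lists in microglia, 1 panel per dosing group. Each dot is a gene, black lines are list medians, and the star is Malat1, the only listed gene that was called, in OTV:Malat1.

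The list of corticosteroid-responsive genes held the highest single estimate of any list in Malat1 ASO against ATV:BACE1. Of 10 genes listed 5 were tested, with a median log2 change of 0.24 there and Klf9 lowest at -0.34. Fkbp5, a chaperone gene induced by glucocorticoids, had 310 and 267 CPM in Malat1 ASO against 156, 98.9 and 77.7 CPM in ATV:BACE1, without overlap. Its log2 change was 1.36 (SE 0.360, edgeR adjusted p = 0.382), so it was not called. Per library it ranged from 62.1 to 213 CPM in nonTV:Malat1 and from 115 to 227 CPM in OTV:Malat1. Immediate-early genes were represented by Jund and Btg2 alone, at -0.06 and 0.43 for OTV:Malat1, neither called.

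Among the genes with the lowest p that were not called was Nlrp1b, an inflammasome sensor with its highest level in microglia. It had 100, 117 and 62.2 CPM in ATV:BACE1 and 206, 297 and 166 CPM in OTV:Malat1, without overlap (log2 change 1.17, SE 0.342, adjusted p = 0.726). In nonTV:Malat1 it had 185, 183 and 87.0 CPM and in Malat1 ASO 169 and 215 CPM. Brd1, a chromatin protein gene, had 55.8, 62.9 and 93.2 CPM in ATV:BACE1 and 235 and 174 CPM in Malat1 ASO (log2 change 1.49, SE 0.406, adjusted p = 0.382). Both rest on small counts, 219 and 181 UMIs in the whole class.

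The share of nuclei named microglia was also compared. It was 0.740, 1.01 and 0.621% in the controls (replicates 1, 4 and 5), and 1.37, 1.09 and 0.881% in nonTV:Malat1. In OTV:Malat1 it was 1.91, 0.888 and 0.535%, and in Malat1 ASO 2.01 and 0.899%. Replicate 1 held the highest share in each group but ATV:BACE1, and the groups overlapped. In edgeR the log2 change for OTV:Malat1 was 0.35 (SE 0.322, adjusted p = 0.958). It turned sign without ATV:BACE1 replicate 1 (-0.0037) or OTV:Malat1 replicate 1 (-0.050), and in replicates 4 and 5 the OTV:Malat1 share was below that of the control. The change was 0.47 (SE 0.319, adjusted p = 0.535) for nonTV:Malat1. Malat1 ASO gave 0.81 (SE 0.366, adjusted p = 0.624). With the same replicate number the share was above that of the control in 3 of 3 nonTV:Malat1 and 2 of 2 Malat1 ASO libraries. No difference in the share of microglia was called.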

How the data were processed

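Microglial nuclei were taken by the predicted class name in the deposited metadata. The deposited matrix holds UMI counts, and its column sums equalled the deposited total count in 110304 nuclei. The submitters' processing notes name Cell Ranger 5.0.0, Seurat 4 and mm10. The authors' percent of mitochondrial UMIs was used as deposited, as was the prediction score, a fraction from 0 to 1 in the authors' metadata. Counts were summed per library over microglia and tested with edgeR 4.0.16 (R 4.3.3, glmQLFit and glmQLFTest, TMM, filterByExpr), with group and batch in the design and Benjamini-Hochberg adjustment over 3400 genes at 0.05. The class interaction and nuclei per class used edgeR too. Exact two-sided permutation tests compared library shares. Pairing rests on the deposited batch column. As a check, the mean log CPM of each group was subtracted per gene, and these deviations were correlated between libraries of different groups. Pairs with the same replicate number gave 0.107 to 0.420 (15 pairs), and pairs with different numbers -0.330 to 0.131 (30 pairs). Deviations cancel within a group, so these ranges are not independent. Alternatives were no block, DESeq2 1.42.0, no TMM, no filter, Malat1 out of library sizes, deeper nuclei, doublets out, a score of at least 0.8, each library left out and, added after seeing the data, cluster 7 only. Malat1 ASO replicate 4 was not analysed here. The members, lists and tests were chosen with earlier results of these data known. Genes were named as called (up to 15 by p, or the 5 lowest p), as the 4 most abundant of a list, as the 20 most enriched or as the 10 most abundant. Other listed genes named in the text were chosen after their values were seen. Some genes that these rules name are not reported here. Scripts were tested on simulated data.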

Additional observations from a re-analysis of the deposited data

Results flagged for a closer look

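The change of Malat1 in microglia differed from that in vascular endothelium by a test of the difference itself. From ATV:BACE1 to OTV:Malat1 the microglial log2 change was less negative by 0.93 (SE 0.161, edgeR interaction of class and group, adjusted p = 0.00484). In each OTV:Malat1 library the log2 ratio of the microglial to the endothelial Malat1 share was 0.55 to 1.00, and in each ATV:BACE1 library it was -0.36 to -0.070. The exact permutation test of these library ratios gave p = 0.1, the smallest possible with 3 against 3. The adjusted p was above 0.05 without ATV:BACE1 replicate 1, ATV:BACE1 replicate 5 or OTV:Malat1 replicate 4, without the library block, and among nuclei of at least 1000 UMIs. The same ratios to oligodendrocytes were also separate, at 0.65 to 0.90 in OTV:Malat1 and -0.82 to -0.63 in ATV:BACE1 (exact permutation p = 0.1).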

How the results depend on the processing

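Malat1 in OTV:Malat1 against ATV:BACE1 kept its direction and call under every alternative and with each library left out (log2 change -1.08 to -0.87, adjusted p up to 0.00212), as did OTV:Malat1 against Malat1 ASO (-1.07 to -0.82, up to 0.0137). Against nonTV:Malat1 the call was lost only with no replicate block (-0.74, adjusted p = 0.0582). Malat1 ASO against ATV:BACE1, near 0, turned sign with no filter (0.072), with called doublets left out (0.0098) and over left-out libraries (-0.096 to 0.065), never called. The share of microglia in OTV:Malat1 turned sign without ATV:BACE1 or OTV:Malat1 replicate 1 (-0.050 to 0.59). The endothelial difference was 0.90 (adjusted p = 1.00) with no replicate block, 0.86 (1.00) in nuclei of at least 1000 UMIs and 0.78 to 1.00 (0.000292 to 0.122) over left-out libraries, and the oligodendrocyte difference was 1.49 (0.0110) with no block.

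Counts of called genes rested on the settings, and the genes counted need not be those of the main run. In nonTV:Malat1 against ATV:BACE1 the DESeq2 call was Hbb-bs, outside the 12 of the main run. Of the 19 calls there with no filter, 11 were among the 12. In OTV:Malat1 against ATV:BACE1 the 2 calls became 1 with no replicate block, DESeq2, doublets out or a score of at least 0.8, 4 with no filter, and 1 to 3 over left-out libraries. In nonTV:Malat1 against ATV:BACE1 the 12 became 0 with no block (133 genes at an unadjusted p under 0.05), in nuclei of at least 1000 UMIs (106) or a score of at least 0.8 (101). They became 1 with DESeq2 or doublets out, 19 with no filter and 0 to 24 over left-out libraries, with 0 without nonTV:Malat1 replicate 5 (235), 2 without ATV:BACE1 replicate 4, 5 and 7 without nonTV:Malat1 replicates 1 and 4, 22 without ATV:BACE1 replicate 5, and 20 and 24 without Malat1 ASO replicates 1 and 5. In Malat1 ASO against ATV:BACE1 the 1 call became 0 with no block (87), DESeq2 (54), nuclei of at least 1000 UMIs (49), doublets out (147) or a score of at least 0.8 (112), and 0 to 3 over left-out libraries, with 0 without ATV:BACE1 replicate 4 (147). In OTV:Malat1 against nonTV:Malat1 the 5 became 0 with no block (83), 2 with DESeq2, a score of at least 0.8 or cluster 7 only, 1 in deeper nuclei or doublets out, 8 without TMM, 11 with no filter, and 1 to 14 over left-out libraries: 1 without nonTV:Malat1 or OTV:Malat1 replicate 5, 2 when the library left out was replicate 4 of OTV:Malat1, replicate 1 or 4 of nonTV:Malat1 or replicate 1 of ATV:BACE1, and 11 to 14 without ATV:BACE1 replicate 5 or either Malat1 ASO library. DESeq2 made 5 calls in OTV:Malat1 against Malat1 ASO, where leave-one-out fits gave 1 to 1. In nonTV:Malat1 against Malat1 ASO the 3 became 0 with no block (50), deeper nuclei (55), doublets out (133), a score of at least 0.8 (80) or cluster 7 only (144), and 0 to 11 over left-out libraries, with 0 without ATV:BACE1 replicate 1, any nonTV:Malat1 library, OTV:Malat1 replicate 1 or Malat1 ASO replicate 1, 1 without OTV:Malat1 replicate 4 and 11 without Malat1 ASO replicate 5. The cause of these moves was not tested. Of 21 calls of genes other than Malat1, none was kept with no block or with DESeq2, which adjusted over 18458 genes and not over 3400. The change in nuclei thinned to 500 UMIs was -1.01 to -0.72 under all alternatives. Depth limits what was testable: 3400 of 18458 genes seen passed the filter.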
